A study of Mus musculus with 4 samples.

Results

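The p53 tumour suppressor, encoded by Trp53, and a fixed list of genes that p53 is known to control were followed in prostate RNA of 4 mice that all carried conditional Trp53. The list held 32 genes, chosen by name, and every probe with one of those gene names in the array files was kept (Zmat3 also under its older name Wig1). This found 31 of the 32 genes and 55 of the 41174 probes on the array. Of these, 49 probes and 30 genes had a signal that passed the filter on dim probes, against 24912 probes and 16851 genes for the whole array. RNA was measured on 4 two-colour arrays, each with the RNA of 1 mouse in the red Cy5 channel and a pool from 3 wild-type mice in the green Cy3 channel. In 2 mice, called mutant here, the genotype was Rb1R654W/F:Trp53F/F:PB-cre4, so 1 Rb1 allele coded for the R654W form of the retinoblastoma protein and the other was conditional. In 2 mice, called null, it was Rb1F/F:Trp53F/F:PB-Cre4, with both Rb1 alleles conditional. All 4 mice were 60 days old, on a mixed C57BL/6:129/SVJae:FVB background, and untreated. The series describes its question as a comparison of Rb1 loss with an Rb1 form that cannot bind E2F.

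p53 is a transcription factor that binds DNA as a tetramer and switches on genes that stop the cell cycle, trigger cell death or repair DNA when a cell is stressed. Mdm2 and Mdm4 hold it down, and Mdm2 is itself a p53 target, which closes a feedback loop. Rb1 loss frees E2F factors, which can raise p53 activity through the Arf protein, so Rb1 and p53 are often studied together in prostate cancer models. In mice with the PB-Cre4 transgene, the probasin promoter drives Cre in prostate epithelium, while stroma, blood vessels and immune cells of the same tissue keep their Trp53 alleles. The labels call the mice of the pool wild type and give no more on them. In such bulk RNA, fewer cells of a type and less RNA per cell cannot be told apart.

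Promoter windows from RefSeq (GRCm38.p6), from 250 bases before to 50 bases after each start, were found for 26 of the 32 genes, in 36 windows. The p53 half-site consensus, a motif of 10 bases that reads the same on both strands, matched in 12 of the 36 windows (33.3%) and in 11 genes. Of all 32851 windows in the table, 8.36% held a match. The 11 genes were Cdkn1a, Mdm2, Ccng1, Ei24, Bax, Sesn1, Trp53, Gadd45a, Polk, Gtse1 and Aen. A match is a description of the letters in this window and not a site shown to be bound. The 250 bases before the start are given for 5 members whose values are described in full below, with the half-site in capitals. Cdkn1a held 2 half-sites, at positions -73 and -51 from the start in 1 of its 2 windows. Mdm2 held 1 at -186, Ccng1 at -185, Ei24 at -10 and Bax at -201.
Cdkn1a promoter, chr17:29090729-29090978, plus strand: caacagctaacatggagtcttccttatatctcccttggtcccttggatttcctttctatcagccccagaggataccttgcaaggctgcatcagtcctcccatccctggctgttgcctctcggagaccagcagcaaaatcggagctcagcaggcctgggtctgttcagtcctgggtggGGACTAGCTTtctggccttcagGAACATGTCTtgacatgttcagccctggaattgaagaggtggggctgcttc
Mdm2 promoter, chr10:117710759-117711008, minus strand: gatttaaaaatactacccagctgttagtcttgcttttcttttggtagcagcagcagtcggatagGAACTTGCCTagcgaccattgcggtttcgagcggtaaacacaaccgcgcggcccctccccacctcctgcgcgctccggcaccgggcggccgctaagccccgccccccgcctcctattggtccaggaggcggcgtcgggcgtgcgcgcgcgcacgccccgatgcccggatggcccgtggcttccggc
Ccng1 promoter, chr11:40755287-40755536, minus strand: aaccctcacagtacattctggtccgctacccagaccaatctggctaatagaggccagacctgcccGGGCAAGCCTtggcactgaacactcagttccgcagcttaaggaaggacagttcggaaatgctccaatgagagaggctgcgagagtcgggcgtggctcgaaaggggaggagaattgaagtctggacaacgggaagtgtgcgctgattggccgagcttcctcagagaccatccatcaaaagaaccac
Ei24 promoter, chr9:36797335-36797584, minus strand: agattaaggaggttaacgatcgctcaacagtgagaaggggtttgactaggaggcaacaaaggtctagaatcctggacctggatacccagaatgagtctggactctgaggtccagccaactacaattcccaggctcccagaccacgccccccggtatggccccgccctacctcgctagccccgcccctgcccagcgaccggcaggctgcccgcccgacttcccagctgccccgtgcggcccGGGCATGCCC
Bax promoter, chr7:45466899-45467148, minus strand: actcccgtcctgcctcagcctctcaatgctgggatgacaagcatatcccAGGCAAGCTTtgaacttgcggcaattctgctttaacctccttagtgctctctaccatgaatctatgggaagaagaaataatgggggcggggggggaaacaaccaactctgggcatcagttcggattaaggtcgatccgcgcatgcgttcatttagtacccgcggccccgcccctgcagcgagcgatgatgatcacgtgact

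All values below are log2 ratios of a mouse over the wild-type pool, so 0 is the level of the pool, and the 4 values of a gene are always in the order mutant 1, mutant 2, null 1, null 2. Where a gene had several probes, the brightest stands for it. The luminal prostate markers were measured in every mouse, with 11 of 12 past the filter. Their medians were 0.25, 0.12, -0.01 and -0.21, and Pbsn, the gene whose promoter drives the Cre, stood at 1.17, 0.91, 0.34 and -0.21. The luminal markers did not move together. In null mouse 1, Msmb read -3.13 and Hoxb13 -1.32, while Krt8 read 1.30 and Krt18 0.85. Null mouse 1 stood apart from the other 3. Its array had 22168 probes well above background in the mouse channel against 25034 to 26119 on the other arrays, and its median background-subtracted mouse signal was 25.5 against 60.7 to 97.0. Over all probes its ratios had a Pearson correlation of 0.156 with null mouse 2, and of 0.211 and 0.233 with the mutant mice. Null mouse 2 correlated at 0.528 and 0.575 with the mutant mice. These are descriptions over probes of arrays that share the pool.

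Trp53 itself was read by a pair of probes that gave different answers. The probe at chr11:69662031-69662089 (files' build mm7) read 0.14, 0.12, 0.53 and 0.08, above the pool in all 4 mice and highest in null mouse 1. The probe at chr11:69671206-69671265, printed in 10 spots on the array, read -0.08, -0.27, -0.05 and -0.40, below the pool in all 4 mice. Neither mean over the 4 mice passed limma's test (0.22 ± 0.11 SE, adjusted p = 0.369, and -0.20 ± 0.11 SE, adjusted p = 0.385). With median centring in place of loess the first was 0.69 and was called (limma adjusted p = 0.0381), and the second was -0.05. The median over all genes was then 0.43, and 17.1% of all probes were called. With Agilent's processed signals the means were 0.16 and -0.44, and neither was called. Without null mouse 1 the first mean was 0.10. The first probe was higher than the second by 0.22, 0.39, 0.58 and 0.48, a mean of 0.42 ± 0.15 (SD, n = 4), and higher in 4 of 4 mice. With 4 arrays an exact two-sided sign-flip test cannot go below p = 0.125. The starts of the probes lie 9175 bases apart on the plus strand, in a gene of 11526 bases in GRCm38.p6, so the first lies toward the 5′ end and the second toward the 3′ end. The genotypes overlapped at both probes, and the spots of the second probe had SDs of 0.062 to 0.128 on an array. Its sequence is shown because it is the probe that stands below the pool.
Trp53 probe toward the 3′ end: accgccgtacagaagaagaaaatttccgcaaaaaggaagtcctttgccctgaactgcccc
The labels do not say which exons the conditional Trp53 allele removes, so neither probe checks the genotype labels. No comparison between mutant and null mice passed at either probe (-0.18 ± 0.22 SE and 0.05 ± 0.21 SE; limma adjusted p = 0.985 and 0.993).

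**Figure D1:**
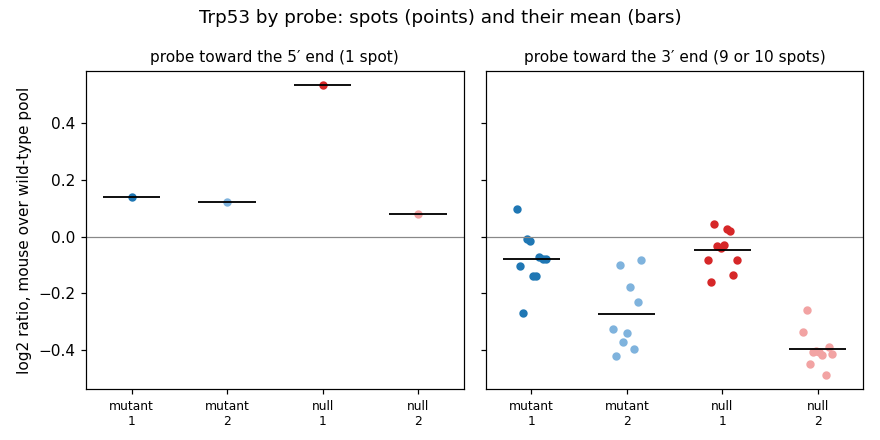
Log2 ratio of each mouse over the wild-type pool for the Trp53 probes toward the 5′ end (left, 1 spot) and toward the 3′ end (right, 9 or 10 spots); points are spots and bars their mean. The 5′ probe lies above 0 in every mouse, and the means of the 3′ probe lie under 0, from -0.05 to -0.40.

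Across the 30 members, the typical ratio lay slightly below the pool in 3 mice and slightly above it in the other, null mouse 1. The medians were -0.23, -0.17, 0.13 and -0.13, against 0.03, 0.02, -0.01 and 0.03 over all genes. The members below 0 numbered 21, 23, 12 and 20 of 30. Over all genes the share below 0 was 46.2%, 45.9%, 50.8% and 44.4%. For the comparisons, the median over members was -0.08 for all 4 mice against the pool, -0.16 for mutant against pool, 0.03 for null against pool and -0.20 for mutant minus null, against 0.03, 0.03, 0.02 and 0.01 over all genes. The sign of 3 of these medians rests on loess: with median centring in its place, the median over members was 0.42, 0.62, 0.23 and 0.30, and that over all genes 0.43, 0.68, 0.18 and 0.42. With either scaling the members' median lay under that of all genes for all 4 mice, for the mutant mice and for mutant minus null. For the null mice it lay above that of all genes with either scaling, by little with loess. This order did not hold in other settings. The members' null median was 0.005 against 0.022 over all genes with only probes well above background throughout. Without null mouse 1 it was -0.13 against 0.03.

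No member changed past the threshold in any comparison. With limma and Benjamini-Hochberg adjustment over all probes, 0 of 49 member probes were called in each of the 4 comparisons, with smallest adjusted p of 0.194 for all 4 mice against the pool, 0.453 for mutant against pool, 0.473 for null against pool and 0.985 for mutant against null. Among all probes, 0.012% were called for all 4 mice and 0% in the other 3 comparisons. At an unadjusted p under 0.05, 5 of 49 member probes differed from the pool over all 4 mice, 2 higher and 3 lower, where 17.6% of all probes did (9.31% higher, 8.27% lower). For mutant against pool 2 of 49 differed, both lower (10.6% of all probes, 6.26% higher and 4.36% lower). For null against pool 2 of 49 differed, 1 in each direction (10.2%, 4.83% higher and 5.38% lower). For mutant against null 1 of 49 differed, lower in the mutant (2.18%, 1.19% higher and 0.996% lower). Median centring called 6 member probes for all 4 mice against the pool, all higher, of Bbc3, Ddit4, Plk2, Sesn2, Trp53 and Trp53inp1, where it called 17.1% of all probes. Without null mouse 2, Trp53inp1 was called in that comparison (1.31% of all probes) and Sfn and Trp53inp1 for null against pool (1.53%), and null mouse 1 was then assumed to vary like the mutant mice. Tests against the pool treat it as 1 control sample and leave out the spread among wild-type mice. In all 4 mice, 3 of 30 members lay above the pool (17.2% of all genes) and 6 of 30 below it (14.1%). Those above were Trp53 at its brighter probe, Trp53inp1 and Tnfrsf10b, the last with a pool signal not well above background on any array and kept by its mouse signal alone. Those below were Ccng1, Ei24, Ercc5, Perp, Sesn1 and Zmat3.

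**Figure D2:**
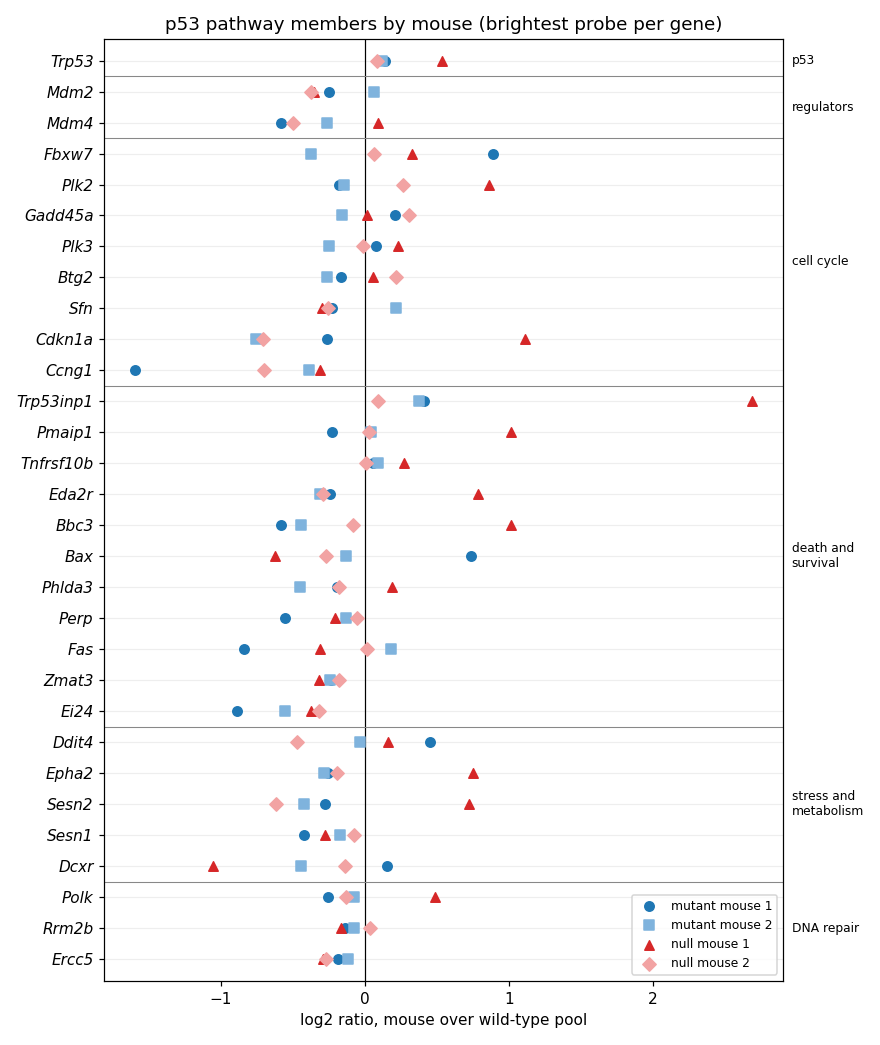
Log2 ratio over the wild-type pool (horizontal axis) of the brightest probe of each of the 30 members past the filter, by mouse. Null mouse 1 is the point farthest to the right for Trp53inp1, Cdkn1a, Bbc3 and Pmaip1, at 2.69, 1.11, 1.02 and 1.01.

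Neither inhibitor of p53 passed the threshold. With loess, the feedback gene Mdm2 read closer to the pool in the mutant mice than in the null mice. With median centring its means at the brightest probe were 0.82 in the mutant and -0.08 in the null mice. The null mice then read closer to the pool, but the medians over all genes were 0.68 and 0.18 in that setting. The mutant mean stayed above the null mean. Mdm2 codes for the ubiquitin ligase that sends p53 to degradation. Its brightest probe read -0.25, 0.06, -0.35 and -0.37, and a probe printed in 10 spots read 0.02, 0.14, -0.24 and -0.21, with SDs between spots of 0.062 to 0.078. At both probes the mutant mice lay above the null mice without overlap. The difference, 0.27 ± 0.20 SE at the brightest probe, did not pass. It was 0.11 without mutant mouse 2, 0.43 without mutant mouse 1 and 0.89 with median centring. In that last setting the median of mutant minus null over all genes was 0.42. Mdm4, the relative of Mdm2 that blocks p53's activation domain, read -0.58, -0.26, 0.09 and -0.50 at its brightest probe, with a mean of -0.31 ± 0.14 SE, or -0.17 without null mouse 2. It was below the pool in 3 mice and near it in null mouse 1. At its other 4 probes null mouse 1 was again the highest of the 4, from -0.06 to 0.69.

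Among the 9 cell cycle members, 8 passed the filter, and none rose or fell past the threshold. Cdkn1a codes for p21, the inhibitor of cyclin-dependent kinases and the best known p53 target. Its probe, printed in 10 spots, read -0.26, -0.75, 1.11 and -0.71, with SDs between spots of 0.053 to 0.117. Cdkn1a was thus below the pool in 3 mice, and above it in null mouse 1 only. The mutant mean was -0.51 ± 0.35 (SD, n = 2) and the null mean 0.20 ± 1.28 (SD, n = 2), and the difference of -0.71 ± 0.62 SE turned to 0.20 without null mouse 1. Ccng1, cyclin G1, a p53 target that acts back on Mdm2, read -1.59, -0.39, -0.31 and -0.70. It lay below the pool in all 4 mice, lowest in mutant mouse 1, with a mean of -0.75 ± 0.22 SE (limma, unadjusted p = 0.0181, adjusted p = 0.227). This mean was -0.45 without mutant mouse 1 and -0.04 with median centring, where the median over all genes was 0.43. Its second probe read only -0.29, -0.14, 0.04 and -0.13.

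Plk2, a polo-like kinase that p53 induces after DNA damage, read -0.18, -0.15, 0.86 and 0.26. The mutant mice lay below the pool and the null mice above it, a difference of -0.72 ± 0.25 SE (limma, unadjusted p = 0.0359, adjusted p = 0.985). With median centring both genotype means lay above the pool, at 0.58 in the mutant and 0.79 in the null mice. The medians over all genes were then 0.68 and 0.18, so Plk2 lay below that level in the mutant mice and above it in the null mice. Btg2, an antiproliferative gene, read -0.16, -0.26, 0.05 and 0.22 at its brightest probe, also with the genotypes on opposite sides of the pool. The other Btg2 probes did not share this: they read 0.64, 0.04, 0.43 and 0.24, and 0.43, -0.01, 0.34 and 0.26. The remaining cell cycle members stayed closer to the pool or differed within a genotype. Plk3, the related kinase, read 0.07, -0.25, 0.23 and -0.01. Gadd45a, a growth arrest gene induced by DNA damage, read 0.21, -0.16, 0.02 and 0.31. Fbxw7, the substrate receptor of a ubiquitin ligase that degrades cyclin E, read 0.89, -0.38, 0.33 and 0.06, so its mutant mice were the highest and the lowest of the 4. Gtse1, which carries p53 out of the nucleus, did not pass the filter: it was well above background in the mouse channel on 0 arrays and in the pool on 1.

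Sfn, which codes for the cell cycle checkpoint protein 14-3-3 sigma, gave a different picture at each probe. The brightest probe, on chromosome 4 where RefSeq places the gene, read -0.23, 0.22, -0.30 and -0.26. Another probe, which the files place on chromosome 8, read -0.41, -0.27, 1.14 and -0.11, and one with no position in the files read -0.18, -0.26, 1.48 and -0.03. Null mouse 1 was thus above the pool by over 1 at the latter probes and below it at the first. The first probe and the one placed on chromosome 8 are shown because their readings of null mouse 1 differ.
Sfn probe on chromosome 4: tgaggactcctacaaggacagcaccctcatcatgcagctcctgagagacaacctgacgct
Sfn probe placed on chromosome 8: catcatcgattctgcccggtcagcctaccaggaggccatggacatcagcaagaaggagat

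Among the 12 listed cell death members, the 11 found by name passed the filter. Bax, the pore-forming protein of the mitochondrial outer membrane, read 0.74, -0.13, -0.62 and -0.27 at a probe printed in 10 spots, with SDs between spots of 0.054 to 0.0996. The mutant mice lay above the null mice, by 0.75 ± 0.34 SE (limma, unadjusted p = 0.0803), yet the mutant mice differed from each other by more than mutant mouse 2 did from either null mouse. Bbc3 codes for Puma, the BH3-only protein that frees Bax. It read -0.58, -0.44, 1.02 and -0.09, so the mutant mice lay below both null mice, by -0.98 ± 0.39 SE (limma, unadjusted p = 0.0537, adjusted p = 0.985). Pmaip1, the BH3-only protein Noxa, read -0.23, 0.05, 1.01 and 0.03, with null mouse 1 well above the other mice. Bax and these 2 genes were therefore not shifted alike: null mouse 1 had the lowest Bax and the highest Bbc3 and Pmaip1.

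Perp, a membrane protein of epithelial desmosomes induced by p53, read -0.55, -0.13, -0.21 and -0.06 and was below the pool in all 4 mice. Ei24, an endoplasmic reticulum protein induced by p53, was the member with the smallest p. It read -0.89, -0.55, -0.37 and -0.32, below the pool in all 4 mice and lower in both mutant mice than in both null mice. Its mean was -0.53 ± 0.10 SE (limma, unadjusted p = 0.00322, adjusted p = 0.194). Zmat3, an RNA-binding zinc finger protein that p53 induces, read -0.24, -0.24, -0.32 and -0.18, the narrowest spread among the members below the pool in all mice, with a mean of -0.25 ± 0.09 SE (limma, unadjusted p = 0.0395, adjusted p = 0.266). With median centring in place of loess, the means of Ei24, Perp, Mdm2 and Mdm4 lay above the pool, at 0.26, 0.61, 0.37 and 0.25. The median over all genes was then 0.43, and of these means only that of Perp lay above it. Ei24 was then higher in the mutant than in the null mice, by 0.24, where the median over all genes was 0.42.

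Trp53inp1, a nuclear protein that promotes p53 phosphorylation, held the highest reading of any member's brightest probe. It read 0.41, 0.37, 2.69 and 0.09, above the pool in all 4 mice and far above it in null mouse 1, with a mean of 0.89 ± 0.42 SE. The mean was 0.24 without null mouse 1, and 1.61 with median centring, where it was called (limma adjusted p = 0.0386). The median over all genes was 0.43 in that setting. A second probe read 2.31, 0.22, 1.69 and 0.17, so there mutant mouse 1 was the highest. That probe is a tandem repeat of 26 bases, matching itself at 33 of 34 bases (97.1%) at that offset, and its unit is shown because the readings of the 2 probes differ.
Trp53inp1 second probe, repeat unit: agtactaatacttaccacagcaggcg
The receptors of the extrinsic death pathway moved little or unevenly. Fas, printed in 10 spots, read -0.84, 0.18, -0.31 and 0.01. Tnfrsf10b, the mouse receptor for Trail, read 0.05, 0.09, 0.27 and 0.01. Its pool signal was not well above background on any array at this or its second probe, which read 0.01, 0.04, 0.05 and -0.05, so no fold against the pool is given. Eda2r, a receptor of the same family, read -0.24, -0.31, 0.79 and -0.29, so 3 mice were below the pool and null mouse 1 above it. Its mutant minus null difference was -0.52, and -1.36 with Agilent's processed signals. The other Eda2r probes were not well above background on any array and read 0.10 and 0.19 in null mouse 1. Phlda3, an inhibitor of Akt signalling, read -0.20, -0.45, 0.19 and -0.18. Aen, a nuclease of apoptosis, was found by accession but not by name, under its older symbol, and stays out of all counts. Its 3 probes read -0.03, -0.35, 0.74 and -0.21, then -0.11, -0.31, 0.52 and -0.24, then -0.07, -0.15, -0.05 and -0.09. The first has a position on chromosome 4, while RefSeq places Aen on chromosome 7. The third was well above background in 2 mutant and 0 null mice, and in the pool on 0 arrays.

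**Figure D3:**
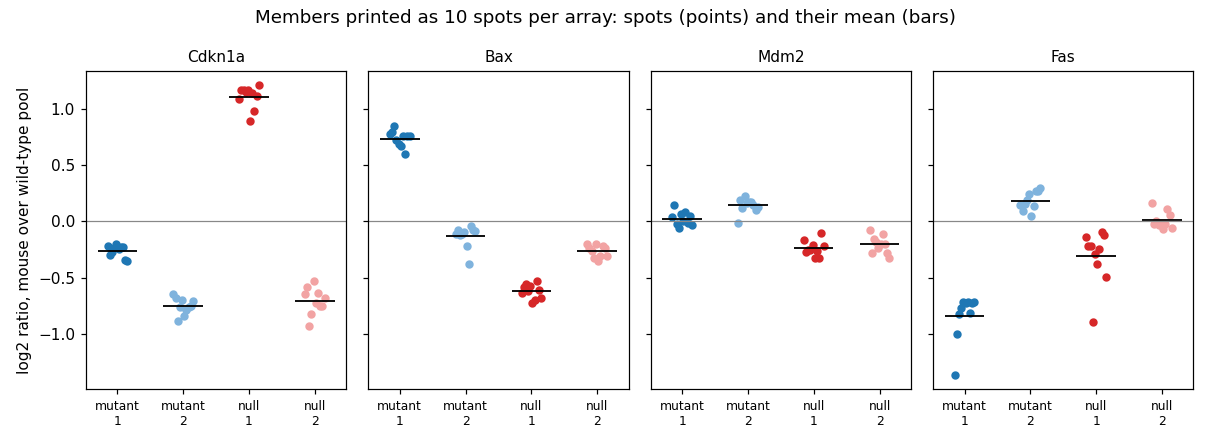
Spots (points) and their mean (bars) for the members printed in 10 spots on each array, as log2 ratios over the wild-type pool. For Cdkn1a the spots of null mouse 1 lie between 0.89 and 1.21 and those of the other 3 mice below 0, so the spread between spots is far smaller than that between mice.

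Of the 5 stress and metabolism members, Sesn2 and Epha2 were above the pool in null mouse 1 only. Sesn2, a sestrin that restrains the mTORC1 growth pathway, read -0.28, -0.42, 0.72 and -0.62, and its second probe -0.05, -0.09, 0.75 and -0.07. Null mouse 1 was the only mouse above the pool at both probes. Sesn1, the other sestrin, did not share this and read -0.42, -0.17, -0.28 and -0.07. Epha2, an ephrin receptor kinase, read -0.26, -0.28, 0.75 and -0.20. Ddit4, which also restrains mTORC1, read 0.45, -0.03, 0.16 and -0.47. Dcxr, a carbonyl reductase of the xylulose pathway, was lowest in null mouse 1, at 0.16, -0.45, -1.05 and -0.13, and at 0.14, -0.57, -1.24 and -0.16 with a second probe. Another Dcxr probe stayed near the pool, at 0.33, 0.02, -0.00 and -0.05.

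Of the DNA repair members, none passed the threshold. Rrm2b, the p53-induced subunit of ribonucleotide reductase, read -0.14, -0.08, -0.17 and 0.03. Ercc5, the nuclease that cuts on the 3′ side of a lesion in nucleotide excision repair, read -0.19, -0.11, -0.29 and -0.27 and was below the pool in all 4 mice. Polk, the translesion DNA polymerase kappa, read -0.26, -0.07, 0.49 and -0.13, with null mouse 1 alone above the pool.

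Between the genotypes, 10 of 30 members had mutant and null mice that did not overlap, against 29.5% of all genes. The mutant mice were higher at Bax, Mdm2, Sfn and Ercc5 and lower at Bbc3, Plk2, Epha2, Ei24, Btg2 and Phlda3. That is 4 above (14.9% of all genes) and 6 below (14.6%). The p53-induced death gene Bbc3 and the kinase Plk2 had the largest differences among these genes, -0.98 and -0.72, and Bax had the largest in the other direction, 0.75. Without null mouse 1, Bbc3 and Plk2 differed by -0.43 each, and without mutant mouse 1 Bax differed by 0.31. With median centring the differences were -0.38 at Bbc3, -0.20 at Plk2 and 1.35 at Bax, where the median over all genes was 0.42. The other Sfn probes ran the opposite way from its brightest, with both mutant mice below both null mice, by -0.85 and -0.95. None passed the threshold, and the exact permutation of 2 against 2 mice cannot go below p = 0.333. In simulated data of the same size, the test between genotypes recovered 0 of 50 probes changed 2-fold and 19 of 50 changed 4-fold. Null mouse 1 decides several of these values. Without it the median over members was -0.05 for mutant minus null and -0.13 for null against pool, and the difference turned from -0.52 to 0.02 at Eda2r, from -0.40 to 0.27 at Sesn2 and from -0.997 to 0.30 at Trp53inp1.

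**Figure D4:**
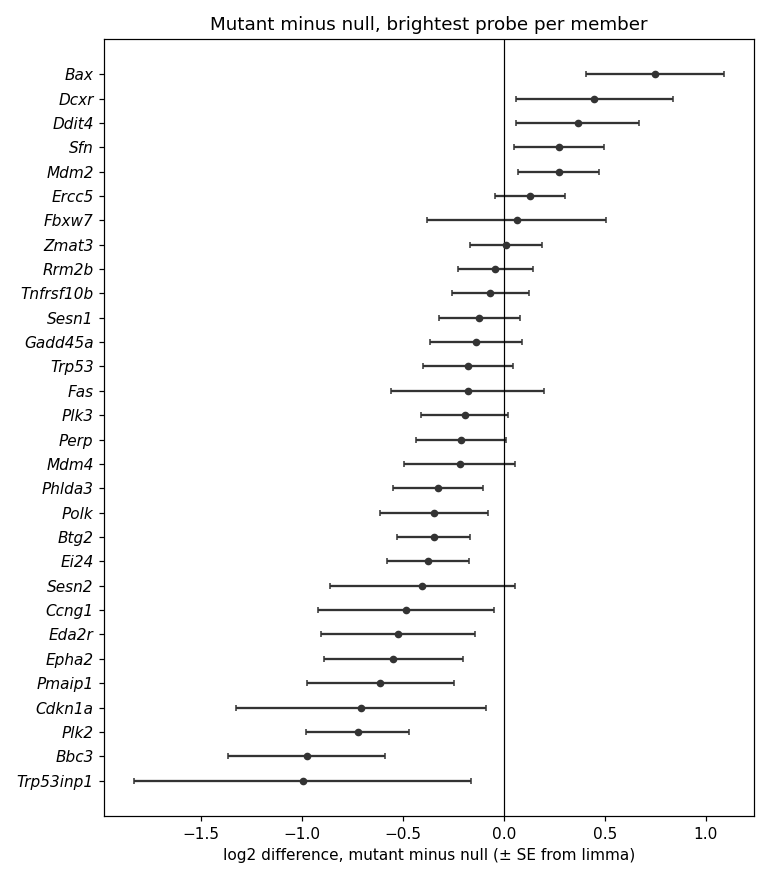
Difference in log2 ratio, mutant minus null, for the brightest probe of each of the 30 members, with the standard error from limma as bars. The values run from -0.997 at Trp53inp1 to 0.75 at Bax, and no member passed the threshold.

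Null mouse 1 had the highest reading of the 4 mice at 15 of 30 members (31.4% of all genes) and the lowest at 6 (38.6%). In 9 members it exceeded each of the other mice by at least 0.5, where 6.82% of all genes did. These 9 were Trp53inp1, Cdkn1a, Bbc3, Eda2r, Sesn2, Pmaip1, Epha2, Plk2 and Polk. The count was made after the values were seen. In the same mouse, 9 heat shock genes had a median of 3.50, against 0.07, 0.19 and 0.37 in the mutant mice and null mouse 2, and their summed signal was 19.62 on the log2 scale against 16.77 to 17.09. The 15 endoplasmic reticulum stress genes had a median of 1.36 in it, against -0.05, 0.10 and -0.20, with sums of 19.33 and 17.92 to 18.32. The 9 basal epithelial genes past the filter had a median of 0.98, against -0.31, -0.33 and -0.05, with sums of 15.72 and 14.63 to 14.64. They did not all move together: in null mouse 1 Krt5 read -0.38 and Itgb4 -0.54, while the rest lay above the pool, up to 1.98 at Krt17. Dsg3, also a listed basal gene, was not above background. The 12 macrophage and myeloid genes had their lowest median in it, at -0.15 against 0.72, 0.48 and 1.16. The part of heat shock, stress, cell makeup or signal strength in the readings of the members in null mouse 1 was not tested.

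With null mouse 1 left out, a choice made after seeing the data, 14 of 30 members lay below the pool in all of the 3 remaining mice (21.4% of all genes) and 3 of 30 above it (29.3%). These sides rest on loess. With median centring and all mice, the members' median was 0.62 for mutant and 0.23 for null against pool, against 0.68 and 0.18 over all genes. The 9 members past the filter with a half-site in the promoter window had medians of -0.26, -0.16, -0.28 and -0.27, and the 15 without one had -0.20, -0.26, 0.19 and -0.18. Smooth muscle genes, as markers of stroma, had medians of -0.26, -0.52, 0.23 and -0.09, with all 10 past the filter. The 5 seminal vesicle genes past the filter, from a gland that adjoins the prostate, had medians of -4.14, -0.79, -5.30 and -3.72. Their part in the members' values was not tested.

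**Figure D5:**
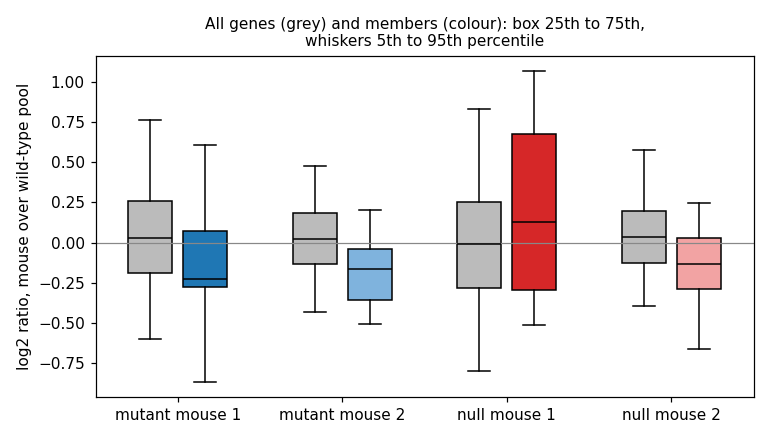
Distribution of the log2 ratio over the wild-type pool in each mouse for the members and for all genes past the filter. The medians of the members are -0.23, -0.17, 0.13 and -0.13, and those of all genes between -0.01 and 0.03.

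The wider pathway was read through 2 further lists. Of 26 regulators of p53, 24 passed the filter and 0 were called with limma for all 4 mice against the pool. Cdkn2a, the gene of Arf, was not above background. At an unadjusted p under 0.05, 4 were higher and 3 lower, where 18.2% of all genes differed (9.99% higher, 8.2% lower). The higher ones were Chek1, the replication checkpoint kinase, at 0.39, 0.45, 0.60 and 0.50, Rpl5 at 0.57, 0.81, 0.22 and 0.50, Rpl11 at 0.57, 0.48, 0.34 and 0.50, and Topors with a mean of 0.39. Rpl5 and Rpl11 are ribosomal proteins known to bind Mdm2. The lower ones were Trp53bp2 with a mean of -0.50, the checkpoint kinase Chek2 with -0.27 and the acetyltransferase Kat5 with -0.23. Of 35 further p53 targets, 34 passed the filter and 0 were called, with 4 higher and 3 lower at an unadjusted p under 0.05. The share among the further targets is near that of all genes. Siva1, a death-promoting gene, read 0.98, 0.40, 0.28 and 0.83, and the damage recognition gene Xpc read -0.62, -0.44, -0.53 and -0.25. Dusp1, Thbs1 and Dram1 were the other higher ones, and Cd82 and Ddb2 the other lower ones. The medians of the further targets were 0.17, 0.07, -0.04 and 0.07, lowest in null mouse 1, where the members had their highest median.

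The authors' deposited table, which gives group means as linear ratios with no value per array, listed Cdkn1a in 10 rows at 1.286 to 1.58 in the null and 0.4328 to 0.5357 in the mutant mice. It listed Bax in 10 rows at 0.5764 to 0.6454 in the null and 1.059 to 1.216 in the mutant mice. The authors' deposited table thus placed Cdkn1a lower and Bax higher in the mutant mice, and it gave Mdm2 as higher there in 11 of 11 rows, by 1.16 to 1.52 times. On the log2 scale used here, the null mean of Cdkn1a is that of 1.11 and -0.71. The scale and centring of that table are unknown.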

How the data were processed

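Prostate RNA of 2 mutant and 2 null mice was hybridised, 1 mouse per array, against a pool of 3 wild-type mice, without dye swap. The deposited scanner files hold spot intensity and a log10 ratio of red over green, per the file headers. Agilent Feature Extraction was version 9.5.1.1 per the file headers and 8.5 per the submitters' processing notes. The authors' deposited table holds group means as linear ratios. Probe positions are the files' own (mm7).

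The background of the mean signals was corrected by normexp (offset 50), and ratios were normalised by loess within arrays, using limma 3.58.1 in R 4.3.3. Controls were weighted 0, flagged spots (131 to 190 of 43379) were left out, none was saturated, and spots of a probe were averaged. Probes entered when well above background on both mice of a genotype or in the pool throughout. The fit (lmFit, eBayes; a term per genotype) covered all kept probes, with Benjamini-Hochberg adjustment, a threshold of 0.05 and a test on simulated data. The pool was 1 control sample, and dye bias stays in tests against it. The labels name individual mice; slide position and genotype cannot be told apart, and the number of arrays limits the precision.

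All members were named. The rule asked for values on every array for Trp53, Cdkn1a, Mdm2, Mdm4, Ccng1, Bax, Bbc3 and Perp, and for members past the threshold, on 1 side of the pool with a mean size of at least 0.3, with genotypes apart by at least 0.5, or with 1 array at least 1 from the median of the others. In the wider lists, genes at an unadjusted p under 0.05 were named after their values were seen. The members and lists were chosen with earlier results of these data known. Promoters came from RefSeq (GRCm38.p6). Alternatives were Agilent's processed signals, median centring, other filters, 1 row per gene, the mean over a gene's probes, 1 mean over 4 arrays, a replicate block and leaving out each mouse.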

Additional observations from a re-analysis of the deposited data

Results flagged for a closer look

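The genotypes lay on opposite sides of the pool at Plk2 (-0.18 and -0.15 in the mutant mice, 0.86 and 0.26 in the null mice), a difference of -0.72, and at the brightest Btg2 probe, a difference of -0.35. Neither difference passed limma's test (adjusted p = 0.985). Such opposite sides were found for 2 of 30 members (6.67%) and for 6.89% of all genes. The other Btg2 probes did not show it. With median centring the Plk2 means lay above the pool in both genotypes, at 0.58 in the mutant and 0.79 in the null mice. The medians over all genes were then 0.68 in the mutant and 0.18 in the null mice. The Plk2 difference was -0.20 in that setting, where the median over all genes was 0.42.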

How the results depend on the processing

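The count of member probes called with limma was 0 in each of the 4 comparisons with Agilent's processed signals, with either other filter, with 1 row per gene and, for all 4 mice, with 1 mean over the arrays. Median centring gave 6 for all 4 mice against the pool, where it called 4260 of all probes, 4193 of them higher. Leaving out 1 mouse gave 0 to 1 for all 4 mice and 0 to 2 for null against pool; both highest values were without null mouse 2, where 326 and 380 of all 24912 probes were called and the lone null mouse was assumed to vary like the mutant mice. The median over members was -0.29 for mutant and -0.0019 for null against pool with processed signals. With median centring it was 0.42 for all 4 mice, 0.62 for mutant, 0.23 for null and 0.30 for mutant minus null. The medians over all genes were then 0.43, 0.68, 0.18 and 0.42. Bbc3 over all 4 mice turned to 0.67 (limma adjusted p = 0.0413). Leaving out 1 mouse moved the median over members from -0.23 to -0.16 for mutant and from -0.13 to 0.13 for null against pool. The cause was not tested. Of 611 values of single genes, 605 kept their side of the threshold and 57 changed sign, 27 of these with median centring and 13 without null mouse 1.

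Same-numbered mice share only a number (correlation of their deviations 0.00359). A replicate block gave 0 calls in all 4 comparisons, and 4, 3, 3 and 1 member probes at an unadjusted p under 0.05.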
